A study of Bos taurus with 6 samples.

Results

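The ZNF genes of the bovine oocyte were taken as every gene whose symbol begins with ZNF and a digit, and those with a mean of at least 1 FPKM over 6 RNA-seq libraries were described as expressed. FPKM, fragments scaled to transcript length and to the mapped fragments of the library, is a level per transcript length, so it can be compared between genes. Of 17325 genes measured, 280 carried such a symbol and 149 of them reached the minimum. The libraries came from oocytes of Bos taurus that had matured in vitro and reached metaphase II, the arrested stage at which the egg can be fertilized. There were 3 libraries labelled NC, the negative control, and 3 labelled siMTFP1, the knockdown of the mitochondrial fission gene MTFP1. The only comparison in the design sets these groups against each other, and every direction below is that of the labels. The labels give no breed, animal, age, dose or duration, and do not say how the knockdown was delivered or how many oocytes were pooled in a library.

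Most ZNF genes encode proteins with tandem C2H2 fingers, small folds in which a zinc ion is held by cysteines and histidines and which read short stretches of DNA. Many also carry a KRAB domain, which recruits the corepressor TRIM28 and the histone methyltransferase SETDB1 to silence retroelements and to keep imprinted regions methylated after fertilization. The symbol is a naming rule and not a function: some ZNF proteins bind RNA, mature ribosomes or attach to the spindle. A full-grown oocyte hardly transcribes, so its messenger RNA is mostly a store laid down earlier.

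All 10 oocyte markers that were checked, among them GDF9, BMP15, ZP3 and MOS, stood at 20 FPKM or more in each of the 6 libraries. Of 18 markers of cumulus and granulosa cells, which surround the oocyte, 12 had a mean of at least 1 FPKM. Their summed level ran from 152.64 to 368.49 FPKM in the libraries labelled control and from 182.93 to 1143.64 in those labelled knockdown. The top sum was that of knockdown 2, where the protease inhibitor TIMP1 alone stood at 955.49 FPKM. Of the same list, STAR, HAS2 and KRT8 averaged 65.65, 41.51 and 17.11 FPKM over the 6 libraries, while FSHR, AMH and CYP19A1 averaged at most 0.18. Of 5 leukocyte genes, PTPRC, CD14 and CD68 averaged 0.0083, 0.013 and 0.255 FPKM, while LYZ averaged 1.57 and CD3E 2.60. The hemoglobin gene HBA read 45.07, 61.77 and 74.09 FPKM in the control and 24.08, 25.01 and 57.87 in the knockdown libraries. The erythroid gene ALAS2 was at 0 in 5 libraries and at 0.03 FPKM in control 2. MTFP1 had 0.53, 0.55 and 0.05 FPKM in control 1, 2 and 3 and 0.43, 0.58 and 1.15 in knockdown 1, 2 and 3. The target was thus not lower in the libraries labelled knockdown, and the groups overlapped. All of its values but that of knockdown 3 were under 1 FPKM, so a reduction could not be judged at this level.

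The ZNF family was broadly present at low levels. At or above the minimum were 53.2% of the 280 ZNF genes, against 56.2% of all genes in the files. The median expressed ZNF gene stood at 3.83 FPKM, with quartiles of 1.76 and 8.01, while the median over all 9730 genes past the minimum was 8.57. Of the 149 members, 43 lay between 1 and 2 FPKM, 73 between 2 and 10, 25 between 10 and 50, and 8 at 50 or more. Only 22.1% of the members reached 10 FPKM, against 46.8% of all genes past the minimum. Mean FPKM chose the members, so these levels are a description and carry no test.

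**Figure D1:**
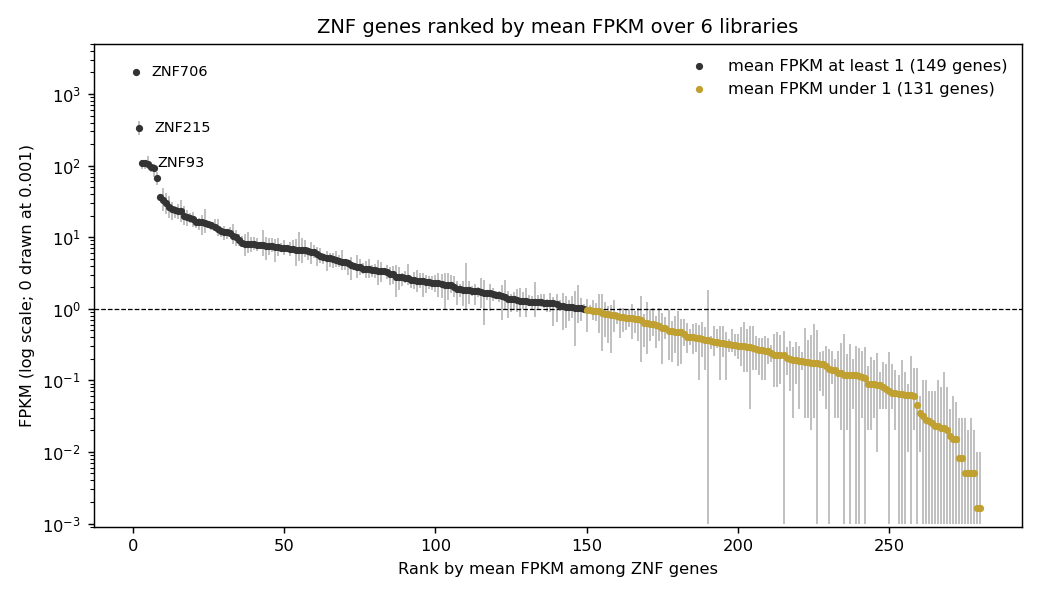
Mean FPKM (log scale) of all 280 ZNF genes by rank, with grey bars from the lowest to the highest library; the dashed line marks the minimum of 1 FPKM. ZNF706 at 2019 and ZNF215 at 336 FPKM stand above a shoulder of 6 genes, and below these the levels decline without a step across the minimum.

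A single gene held more than 50% of the family's summed FPKM. ZNF706 (gene ID 614279), which encodes a small zinc finger protein linked to the exit of embryonic stem cells from self-renewal, read 2080.21, 1894.55 and 2204.23 FPKM in control 1, 2 and 3. It read 1989.64, 1889.73 and 2053.27 FPKM in knockdown 1, 2 and 3. It was first among the ZNF genes in all 6 libraries and number 55 among all genes by mean FPKM. Its share of the members' summed FPKM ran from 50.5% to 55.7%. All 149 members together made up 0.413% to 0.502% of a library's total FPKM, and the groups overlapped in that share.

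ZNF215 (gene ID 529157), which in human lies beside an imprinted region linked to overgrowth, was second in every library. It had 356.13, 351.60 and 294.48 FPKM in the control libraries and 422.38, 325.92 and 263.95 in the knockdown libraries, so that the highest and the lowest value both carried the knockdown label. Its direct neighbour among protein-coding genes, ZNF214, stood far lower, at 2.33 ± 0.741 FPKM (SD, n = 3) in the control libraries and 1.97 ± 0.574 in the knockdown libraries.

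After these came 6 genes between 67.9 and 108 FPKM, and 5 of them, all but ZNF277, changed places within ranks 3 to 7 from library to library. ZNF93 (gene ID 510078), known in human as a KRAB repressor of LINE-1 elements, averaged 113 ± 10.9 FPKM in the control libraries and 104 ± 12.3 in the knockdown libraries (SD, n = 3). ZNF207, a microtubule-binding protein that loads the checkpoint protein BUB3 onto kinetochores, averaged 109 ± 11.6 and 106 ± 13.9 FPKM. Neither pair of means differed by more than the spread between libraries. ZNF330, a nucleolar protein, averaged 99.9 ± 5.80 and 90.4 ± 7.36 FPKM, and ZNF75D averaged 88.1 ± 18.4 and 95.7 ± 6.64. ZNF664 is described with the comparison below. ZNF277 was eighth in every library, with 64.2 ± 15.6 and 71.6 ± 2.25 FPKM.

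The next places were held by ZNF177 and ZNF22. ZNF177 averaged 35.8 ± 3.55 FPKM in the control and 37.1 ± 2.55 in the knockdown libraries (SD, n = 3). ZNF22, known from tooth development as KROX26, read 31.34, 22.95 and 48.00 FPKM in control 1, 2 and 3 against 36.61, 34.12 and 26.99 in knockdown 1, 2 and 3. Its extremes were both control libraries. Across the 149 members the order of levels was similar in all libraries, with Spearman rho from 0.926 to 0.960 between pairs, a correlation across genes that share each library and are not replicates.

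Ranks 11 to 20 lay between 18.2 and 30.2 FPKM. ZNF354A, first known from injured kidney as Kid-1, read 37.53, 20.75 and 41.51 FPKM in control 1, 2 and 3 and 25.51, 28.94 and 26.73 in knockdown 1, 2 and 3. The knockdown libraries lay between the extremes of the control libraries. ZNF2 read 33.49, 27.49 and 16.50 FPKM against 23.53, 17.42 and 19.48, and its control libraries again spanned those of the other group. ZNF705A read 22.98, 30.42 and 17.32 FPKM against 24.60, 31.28 and 22.11, and ZNF879 read 26.85, 23.16 and 24.70 against 25.34, 25.41 and 18.82. In these 4 genes the groups overlapped.

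**Figure D2:**
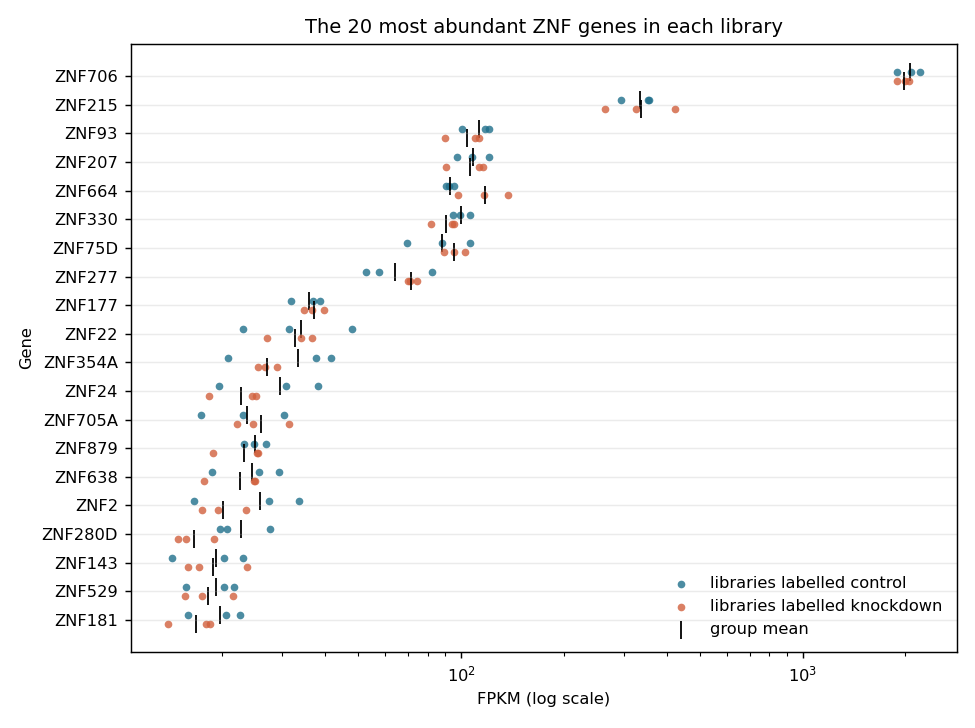
FPKM (log scale) of the 20 most abundant ZNF genes in each of the 3 control and 3 knockdown libraries; each dot is a library and each black tick a group mean. ZNF706 and ZNF215 keep ranks 1 and 2, and the dots of the groups are separated for ZNF664 and ZNF280D.

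The minimum of 1 FPKM fell within a continuous run of levels. The 3 genes just inside were ZNF654 at 1.00, ZNF283 at 1.01 and ZNF548 at 1.025 FPKM, and the 3 just outside were ZNF555 at 0.965, ZNF232 at 0.963 and ZNF304 at 0.942. Of the members, 122 were at or above 1 FPKM in all 6 libraries and 27 were not, and 0 were listed at 0 in any library. Among the 131 ZNF genes below the minimum, 19 reached 1 FPKM in at least 1 library. The highest such value was 1.82 FPKM, for ZNF449 in knockdown 1. That gene was listed at 0 in 4 of the other libraries and at 0.35 in control 3. For 8 members the mean of only 1 group reached 1 FPKM, 4 through each group.

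Several of the better represented members act on RNA or ribosomes. Of 10 listed, 9 were expressed, with ZNF385A at 0.478 FPKM the exception. ZNF638, an RNA- and DNA-binding silencer of unintegrated viral DNA, had 29.26, 18.67 and 25.60 FPKM in the control and 25.03, 24.75 and 17.69 in the knockdown libraries. ZNF598, the ubiquitin ligase that marks collided ribosomes, had 14.39, 11.82 and 11.03 against 13.46, 9.04 and 11.07 FPKM. ZNF830, a splicing-associated protein, had 15.04, 8.13 and 8.20 against 12.88, 9.77 and 8.16 FPKM. In these 3 genes the groups overlapped, and library 1 of each group was the highest of its group. Lower down stood ZNF346, a binder of double-stranded RNA, at 7.97 FPKM, ZNF622, a maturation factor of the large ribosomal subunit, at 4.36, and ZNF473, which takes part in processing histone messenger RNA, at 1.3. By limma, the linear model fitted to log2(FPKM + 1) of all 9730 genes, 0 of the 9 passed the adjusted threshold of 0.05, and 1, ZNF593, had an unadjusted p under 0.05, beside 0% and 6.53% of all genes tested. The median log2 difference, knockdown minus control, of the 9 was 0.0078, beside 0.02 over all genes tested.

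Among DNA-binding regulators, 8 of 10 listed were expressed. ZNF24, a SCAN-domain repressor, was the highest, with 38.17, 19.58 and 30.81 FPKM in the control and 25.12, 24.46 and 18.30 in the knockdown libraries. ZNF143, which binds the promoters of many small nuclear RNA and housekeeping genes, had 23.08, 20.26 and 14.24 against 23.67, 17.05 and 15.85 FPKM. Its close paralog ZNF76 had 9.29, 8.41 and 7.53 against 9.73, 9.25 and 11.07 FPKM. ZNF410, an activator of the nucleosome remodeller gene CHD4, averaged 4.55 FPKM over the 6 libraries, and CHD4 itself averaged 4.01. The groups overlapped in all of these. By limma 3 of the 8 had a higher and 5 a lower mean log2 level in the knockdown libraries, with a median of -0.06, while 54.2% of all genes tested were higher. The same test gave 1 unadjusted p under 0.05, beside 6.53% of all genes. It was that of ZNF148, which reached the minimum only through the knockdown libraries.

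Factors tied to chromatin complexes were low, and 6 of 9 were expressed. ZNF462 led at 6.12 FPKM, followed by ZNF518A at 4.79 and ZNF532 at 3.83, while ZNF644, a partner of the histone methyltransferases G9a and GLP, averaged 0.190. Of the 6, 1 had a higher and 5 a lower mean log2 level in the knockdown libraries (median -0.09), with 0 past the adjusted threshold and 0 with an unadjusted p under 0.05 by limma, beside 6.53% of all genes tested. Of the spindle, SUMO and repair list 3 of 5 were expressed: ZNF207, the SUMO ligase ZNF451 at 4.43 FPKM, and ZNF280C at 1.84. Developmental regulators were mostly below the minimum. Of the 7 found, 2 were expressed, ZNF503 at 2.47 and ZNF536 at 1.3 FPKM, while ZNF423, ZNF521 and ZNF750 averaged 0.168, 0.127 and 0.027. ZNF541, a partner of histone deacetylases in male meiosis that was on no list, lay at the minimum, with 1.19, 0.95 and 0.75 FPKM in the control and 1.52, 0.83 and 1.03 in the knockdown libraries.

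Of the list of imprint and retroelement repressors, 2 of the 5 genes found were expressed, at levels far apart. The listing of ZNF93 follows the human gene of that name, and its function in cattle was not examined here. ZNF93 was number 3 of the family, whereas ZNF445, which protects imprinted methylation in the early embryo, averaged 2.63 FPKM in the control and 2.29 in the knockdown libraries. Its partner in that task, ZFP57, averaged 0.038 FPKM, with 0.08 FPKM as its highest library. ZNF268 was below the minimum at 0.688, and ZNF202 and ZNF10 averaged 0.022 and 0.015 FPKM.

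The proteins that KRAB factors recruit were expressed in most cases, 16 of the 19 genes found, as defined by a list of silencing partners. TRIM28 had 22.77, 19.54 and 19.97 FPKM in the control and 25.52, 19.72 and 21.71 in the knockdown libraries. SETDB1 had 7.83, 7.99 and 8.19 against 7.99, 7.36 and 7.40 FPKM. The groups overlapped in both. By limma 8 of the 16 had a higher and 8 a lower mean log2 level in the knockdown libraries (median -0.0053), and 0 passed the adjusted threshold. An unadjusted p under 0.05 was found for 2, beside 6.53% of all genes tested, and both were higher (3.86% of all genes were), the deacetylase HDAC2 and the methylation maintenance factor UHRF1. HDAC2 read 15.58, 12.79 and 11.90 FPKM in the control and 20.44, 19.99 and 15.33 in the knockdown libraries, with knockdown 3 just under control 1. UHRF1, at 555.80, 392.10 and 288.45 against 856.49, 855.80 and 510.17 FPKM, overlapped in the same way. The groups did not overlap in 1 of the 16, PPHLN1, a subunit of the HUSH silencing complex, which was lower at 18.56, 18.14 and 18.73 FPKM in the control against 14.15, 14.02 and 16.98 in the knockdown libraries (5.05% of all genes were lower without overlap).

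The share of expressed genes varied among other zinc finger families, and no difference in these shares was tested. At or above 1 FPKM were 9 of 18 ZFP genes, 20 of 40 genes with a ZBTB symbol, 10 of 16 KLF genes and 5 of 9 SP genes, that is 50%, 50%, 62.5% and 55.6%, beside 53.2% of the ZNF genes. These families were taken by symbol, and the ZBTB count includes ZBTB8OS, at 14.79 FPKM, which is not a zinc finger gene. The SCAN-domain families had 3 of 12 ZSCAN and 2 of 6 ZKSCAN genes at that level. In each of these families 0 genes passed the adjusted threshold by limma, with 1 ZBTB and 1 KLF gene at an unadjusted p under 0.05, both higher in the knockdown libraries, as were 3.86% of all genes tested.

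The members differed in how steady they were across libraries. The ratio of the highest to the lowest library had a median of 1.70, was under 1.5 in 39 members and was 3 or more in 8. ZNF274, a KRAB protein that binds zinc finger gene clusters, was among the steadiest, with 7.29, 7.65 and 7.75 FPKM in the control and 7.77, 8.12 and 8.13 in the knockdown libraries. ZNF274 was singled out after its values were seen. ZNF280C had the largest standard deviation on the log2 scale (0.51 over the 6 libraries), through control 3 alone: 1.43, 0.95 and 4.38 FPKM in the control against 1.42, 1.61 and 1.26 in the knockdown libraries. ZNF593 and ZNF582 came next and are described below. Within groups, the median standard deviation of log2(FPKM + 1) was 0.20 in the 43 members between 1 and 2 FPKM and 0.23 in the 16 members at 20 or more, beside 0.24 and 0.20 in all genes of the same levels.

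Between the groups, no ZNF gene passed the adjusted threshold, and the genes nearest to it had moderate differences in both directions. By limma with Benjamini-Hochberg adjustment over 9730 genes, 0 of the 149 members had an adjusted p under 0.05, beside 0% of all genes. At an unadjusted p under 0.05 there were 7 members, 4.7% of them, beside 6.53% of all genes tested. Of these, 4 were higher in the knockdown libraries, beside 3.86% of all genes, and 3 were lower, beside 2.66%. The 4 include ZNF148, which reached the minimum of 1 FPKM only through the knockdown libraries. After scaling, the higher and lower counts at that p were 4 and 1 with equal sums, 3 and 4 with median ratios and 2 and 5 with quantiles. In either direction these scalings gave 5.86%, 6.76% and 6.78% of all genes tested. The count of members in either direction was 4 without control 1, 2 without knockdown 2 and 4 without knockdown 3. The shares of all genes tested were then 6.81%, 3.45% and 7.15%. Without control 2 the count was 10, with 1 higher and 9 lower, beside 7.30% of all genes in either direction. The labels do not say whether libraries of a group came from separate animals or cultures, and every p-value therefore reflects nothing but the scatter among these 6 libraries, which may be technical.

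In the higher direction, ZNF385B (gene ID 613328), whose fingers belong to the double-stranded RNA-binding type, had the smallest p of the family. Its FPKM was 1.58, 1.4 and 1.96 in control 1, 2 and 3 and 2.62, 2.69 and 3.07 in knockdown 1, 2 and 3. Each knockdown library lay above each control library. The log2 difference was 0.52 (SE 0.16, limma adjusted p = 0.673), and over the 15 alternative fits it ranged from 0.23 to 0.74. Its unadjusted p was under 0.05 in all 15, while for the other 11 genes named in this comparison that held in 0 of 16 fits (ZNF575) to 11 of 16 (ZNF280D). These fits reuse the libraries from which ZNF385B was picked, and its limma adjusted p was at least 0.290 in each.

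ZNF524, a protein found at telomeres, had 2.87, 2.87 and 2.37 FPKM in the control and 3.18, 4.48 and 4.36 in the knockdown libraries, again without overlap. By limma the log2 difference came to 0.43 (SE 0.17, adjusted p = 0.750). ZNF148, a GC-box binding factor also called ZBP-89, had 0.92, 0.76 and 1.09 FPKM against 1.69, 1.95 and 1.2. The groups did not overlap, and the log2 difference was 0.44 (SE 0.18, limma adjusted p = 0.750). ZNF148 passed the minimum of 1 FPKM only through the knockdown libraries, so its place among the members is not independent of its difference.

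ZNF593, an export factor of the large ribosomal subunit, was the member with the largest positive log2 difference, 0.61 (SE 0.27, limma adjusted p = 0.764). It read 11.46, 11.50 and 12.85 FPKM in the control libraries and 11.39, 24.80 and 22.82 in the knockdown libraries. Knockdown 1 was thus the lowest of all 6, and the difference lay in knockdown 2 and 3, with a log2 value of 0.94 without knockdown 1. ZNF664, number 5 of the family in abundance, had 95.35, 90.56 and 92.11 FPKM against 116.72, 137.09 and 97.83. Its control libraries lay close together and below every knockdown library, with a log2 difference of 0.32 (limma SE 0.15, adjusted p = 0.766), or 0.20 without knockdown 2. ZNF575 had 11.99, 10.53 and 9.38 FPKM against 12.95, 12.69 and 13.22, a log2 difference of 0.27 (limma SE 0.15, adjusted p = 0.828), without overlap. Knockdown 2, the library with the highest sum of cumulus markers, was the highest of all in ZNF524, ZNF148, ZNF593 and ZNF664. TIMP1 made up 955.49 of the 1143.64 FPKM of that sum. The next most abundant markers, STAR, HAS2 and KRT8, peaked in other libraries, while SPARC, LUM and VIM peaked in knockdown 2. The mean log2(FPKM + 1) of the markers was 2.69 in knockdown 2 and 2.55 in control 1. The part of cumulus cells in the differences of these ZNF genes was not tested, and in bulk RNA more cells of a type cannot be told apart from more RNA per cell.

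In the lower direction, ZNF582, known as a KRAB gene methylated in tumours, had the smallest p and the largest negative log2 difference of the family, -0.60 (limma SE 0.24, adjusted p = 0.750). Its FPKM was 2.25, 1.75 and 2.55 in the control libraries and 0.92, 0.59 and 1.96 in the knockdown libraries, where knockdown 3 lay above control 2. Its neighbours ZNF583 and ZNF667 had no such contrast, at 8.20 against 7.78 and 1.13 against 1.25 FPKM in the control and knockdown means.

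A pair of paralogs from the ZNF280 group, named for their likeness to the fly insulator protein suppressor of hairy wing, followed. ZNF280D had 20.61, 19.68 and 27.63 FPKM in the control and 18.95, 14.87 and 15.63 in the knockdown libraries. ZNF280B had 8.47, 8.45 and 10.98 against 7.77, 6.97 and 5.42 FPKM. In both genes every knockdown library lay below every control library and control 3 was the highest. The log2 differences were -0.43 (SE 0.18, limma adjusted p = 0.750) and -0.42 (SE 0.18, limma adjusted p = 0.764), and that of ZNF280D was -0.28 without control 3. The counting rule for reads shared by such paralogs was not stated in the labels, and their values may not be independent.

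ZNF154, a KRAB gene, had 1.65, 1.57 and 1.78 FPKM in the control and 0.74, 1.32 and 1.1 in the knockdown libraries, a log2 difference of -0.39 (limma SE 0.17, adjusted p = 0.766), without overlap. ZNF182 had 9.78, 6.77 and 9.76 against 6.47, 6.20 and 6.84 FPKM, with control 2 inside the knockdown range and a log2 difference of -0.37 (limma SE 0.18, adjusted p = 0.781). ZNF467, a factor linked to bone and fat cell fate, had 2.68, 2.61 and 3.31 against 2.10, 1.91 and 2.32 FPKM, without overlap and with a log2 difference of -0.31 (limma SE 0.16, adjusted p = 0.801).

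**Figure D3:**
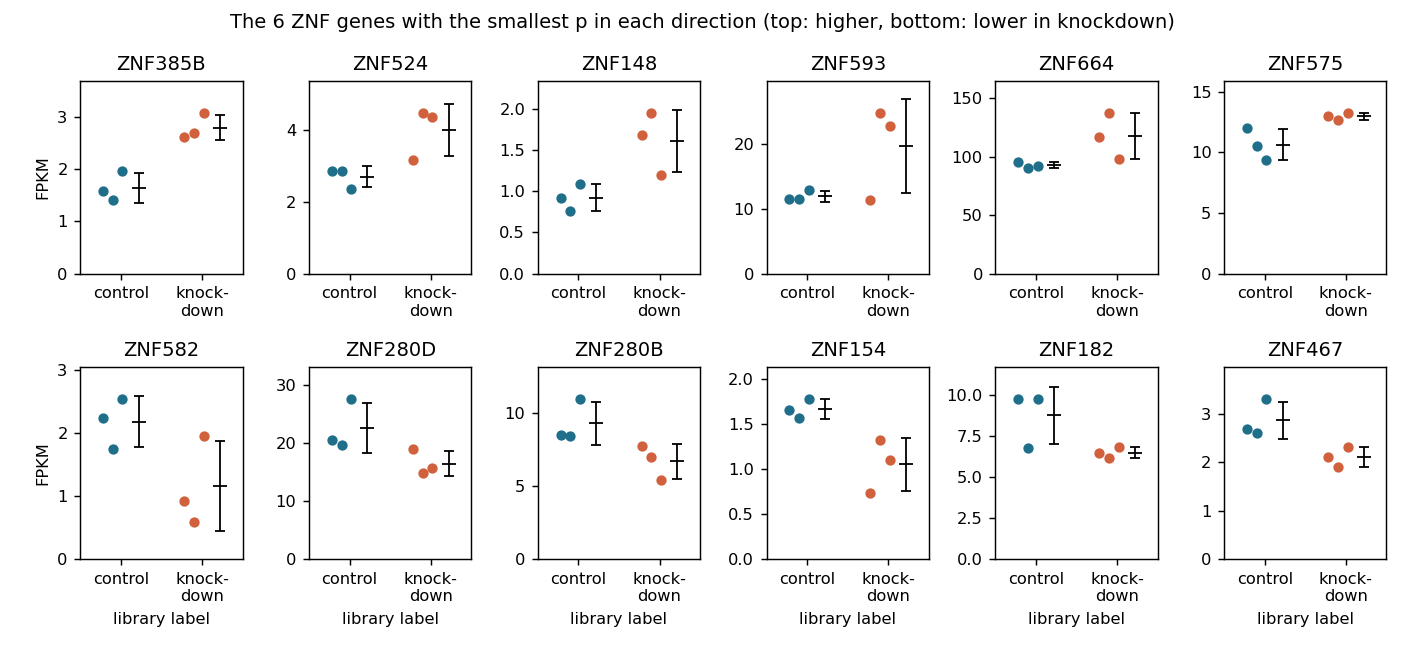
FPKM by library for the 6 ZNF genes with the smallest p in each direction, each panel from 0 on its own scale; dots are libraries and the bars beside them show the mean and SD of 3. Of the 12 genes, 9 show no overlap between control and knockdown dots, the exceptions being ZNF593, ZNF582 and ZNF182.

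Over the whole family, the groups did not overlap in 15 members, 10.1% of them, beside 11.0% of all genes tested. In 7 the knockdown libraries were higher (5.97% of all genes were) and in 8 lower (5.05% of all genes were), so both shares were near the background. The 7 include ZNF148, which reached the minimum only through the knockdown libraries. Besides the 9 named above, the members without overlap were ZNF436 and ZNF274 on the higher side and ZNF7, ZNF112, ZNF518B and ZNF35 on the lower. ZNF436 had 13.82, 15.51 and 12.52 FPKM in the control and 16.51, 15.55 and 15.90 in the knockdown libraries, so that the groups were only just apart. A log2 difference of at least 0.5 in size was reached by 3 members, ZNF593, ZNF385B and ZNF582, or 2.01% beside 6.71% of all genes tested.

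**Figure D4:**
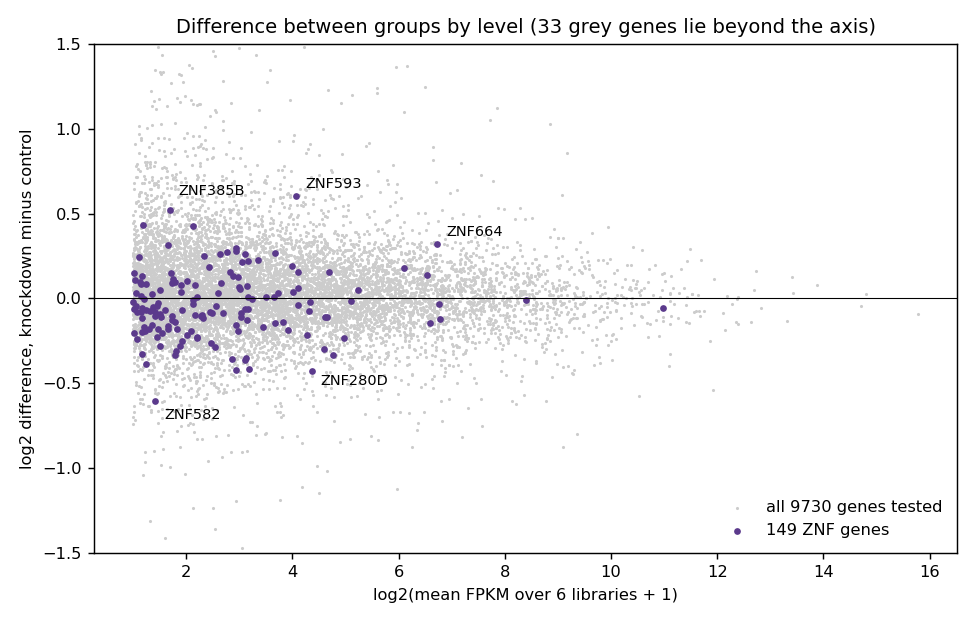
Log2 difference, knockdown minus control, against the log2 mean level for all 9730 genes tested (grey) and the 149 ZNF genes (purple), with 33 grey genes beyond the axis. The ZNF genes lie between -0.60 and 0.61, and most of them sit at the low-level end.

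The balance of small differences leaned to the lower side. The log2 difference was negative in 92 of the 149 members and positive in 57, so 38.3% were higher in the knockdown libraries, beside 54.2% of all genes tested. The median was -0.06 for the members and 0.02 for all genes, with quartiles of -0.17 and 0.09 for the members and -0.11 and 0.17 for all genes. This is a description without a test, since members are not replicates. Control 1 was the highest library for 54 members, 36.2%, beside 21.3% of all genes tested. The lowest library was knockdown 2 for 36 members, 24.2% beside 13.5% of all genes, and knockdown 3 for 34, 22.8% beside 17.6%. Without control 1 the members split into 73 higher and 76 lower (median -0.0061), and without knockdown 3 into 72 and 77 (median -0.0019). The medians over all genes were then 0.06 and 0.04, and 59.7% and 56.3% of all genes were higher.

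The lean differed in size between classes of level. Of the members from 1 to under 2 FPKM, 12 were higher and 31 lower, and of those from 2 to under 5 FPKM, 14 and 27. Of the 49 members from 5 to under 20 FPKM, 26 were higher and 23 lower, with a median of 0.0078, and of the 16 at 20 or more, 5 and 11, with a median of -0.05. The medians of the 2 lowest classes were -0.07 and -0.09. In all genes of the 4 classes, from the lowest up, the medians were 0.04, 0.03, 0.02 and 0.01. These differences between classes were not tested.

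Members that lie beside another ZNF gene leaned further than those that lie alone. ZNF genes often sit in tandem arrays, and among 147 members placed in the RefSeq gene order, 58 had another ZNF gene as the next protein-coding gene and 89 did not. Neighbours named ZFP, ZSCAN or LOC were not counted, so a member called alone may still lie in a cluster of zinc finger genes. Of the 58, 17 had a higher and 41 a lower mean log2 level in the knockdown libraries, with a median of -0.08. Of the 89 the counts were 40 and 49, with a median of -0.03. Without control 1 the 58 split into 24 higher and 34 lower, and without knockdown 3 into 25 and 33. Of all genes tested, 54.2% were higher with all libraries, 59.7% without control 1 and 56.3% without knockdown 3. The difference between the 2 kinds was not tested.

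The arrays with 3 or more members numbered 5 and held 20 members, of which 3 were higher and 17 lower, against 7 and 13 without control 1 and 9 and 11 without knockdown 3. In the same fits 54.2%, 59.7% and 56.3% of all genes tested were higher. An array ended wherever the next protein-coding gene was not counted as a ZNF gene. Those of ZNF529, ZNF568 and ZNF569 were close together in the gene order, so the 5 arrays need not be separate clusters. The longest by this rule, 10 adjacent ZNF genes, held the members ZNF226, ZNF45, ZNF235, ZNF227, ZNF112 and ZNF283, with mean levels from 1.01 to 9.96 FPKM. In it 5 members were lower and 1, ZNF283, higher, with log2 differences between -0.20 and 0.15. ZNF529, ZNF382, ZNF566 and ZNF461, in an array of 7, were all lower, by -0.19 to -0.08. ZNF568, ZNF829 and ZNF585A, in an array of 5, lay between -0.08 and -0.0028. ZNF524 and ZNF580, also in an array of 5, were both higher. Among the other arrays with 2 members, both were higher in those of ZNF177 and ZNF184. Both were lower in those of ZNF181, ZNF197, ZNF215, ZNF286A, ZNF398 and ZNF428, and those of ZNF729 and ZNF852 held 1 of each. No member of these arrays passed the adjusted threshold by limma, and genes of an array are similar in sequence, so that shared reads may tie their values together.

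**Figure D5:**
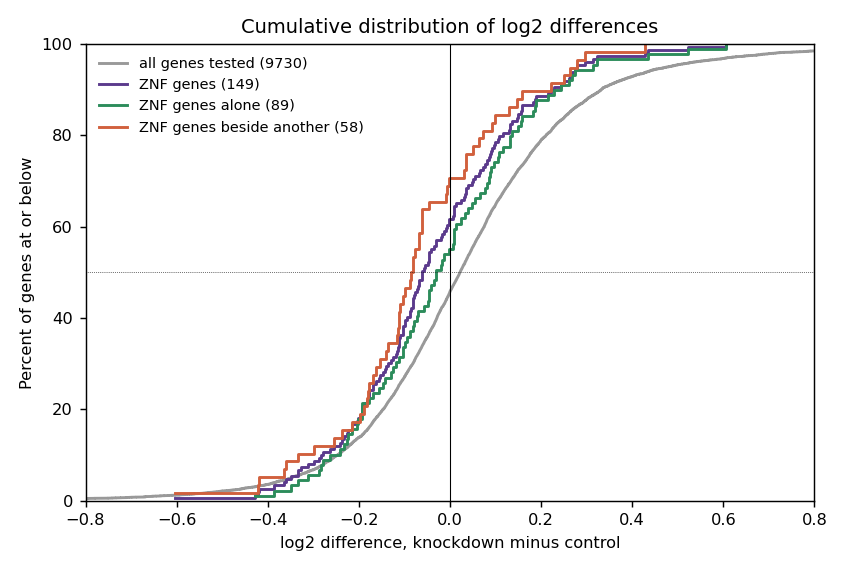
Cumulative percent of genes by log2 difference, knockdown minus control, for all genes tested, all 149 ZNF genes, the 89 ZNF genes alone and the 58 beside another ZNF gene. At a difference of 0 the curves stand at 45.8% for all genes and 61.7% for the ZNF genes.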

How the data were processed

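For each of the 6 libraries the authors deposited an FPKM value with 2 decimals for 17325 genes, per the file headers. Per the submitters' processing notes the build was ARS-UCD1.2, and the tools listed, without role or order, were DESeq2 1.4.5, RSEM 1.3.1, HISAT2 2.2.1 and Bowtie2 2.3.4.3. FPKM carries no read total, so depth is unknown and no counting interval is given; the summed FPKM of a library ran from 784366 to 892790. Samples were grouped by title.

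Genes with a mean of at least 1 FPKM were compared on log2(FPKM + 1) with limma 3.58.1 in R 4.3.3 (eBayes with trend, two-sided, group as only term, Benjamini-Hochberg over 9730 genes, threshold 0.05), after a test on simulated data. On this scale changes of low genes are understated. Alternatives were other pseudocounts, filters and scalings, a replicate block, array weights, robust eBayes and each library left out.

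Members, lists and tests were chosen with earlier results of these data known. Named were the 10 most abundant members, the 6 with the smallest p per direction, the 3 most variable, the 3 on each side of the minimum and up to 4 of each role list by level; further names from the lists, ZNF214, ZNF449, ZNF274, ZNF541, genes of ranks 11 to 20, other members without overlap and array members were chosen after their values were seen. Symbols are those of the files. By gene ID 147 of 149 members matched the RefSeq table of ARS-UCD2.0, 3 of them under another symbol there (ZNF529, ZNF852 and ZNF845). It was used only for gene order, in which neighbours named LOC were not counted as ZNF genes. Finger counts and protein motifs were not analysed here. Tables and plots used Python 3.11.15, pandas 2.3.3 and matplotlib 3.10.9.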

Additional observations from a re-analysis of the deposited data

How the results depend on the processing

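In all 16 alternative fits 0 ZNF members passed the adjusted threshold by limma, and the sign of the log2 difference of the 12 genes with the smallest p was kept in each fit that included them. These genes were chosen by p from the same libraries, so the kept signs are no independent support. Where the groups did not overlap, leaving out a library or changing the pseudocount, filter or block could not reverse the sign. The number of members at an unadjusted p under 0.05, 7 in the report, was 4 with no filter, 2 with only genes of at least 5 FPKM, where 65 members are left, and 3 with the replicate block. Of all genes fitted, 5.99%, 5.89% and 6.47% had such a p in these settings, in the same order. Leaving out a library gave 2 to 10 members, while the share of all genes ran from 3.45% to 7.85%. The median log2 difference of the members, -0.06 in the report, was -0.12 after quantile normalization, where the median of all genes was -0.02, and ran from -0.10 to -0.0019 when a library was left out. The cause was not tested. No pairing by the replicate numbers in the titles was visible. Deviations of same-numbered libraries from their group means correlated at 0.03, -0.16 and 0.07 across genes, and not every library correlated best with its own number. The labels do not state whether libraries were paired, and low correlations cannot show that they were not. The 10 most abundant members were the same 10 genes with equal sums, with median ratios, by the median over libraries and with any 1 library left out. A minimum of 0.5, 2 or 5 FPKM gave 176, 106 or 65 members. Alternatives on protein motifs were not run. Depth is unknown, so the precision of low members rests on the spread of 3 libraries a group.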
